A study of Arabidopsis thaliana with 4 samples.

Results

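The genes described here are the abundant and stable ones of the *Arabidopsis* seedling shoot: 62 nuclear genes whose array signal was among the highest measured and whose mean differed little between the *aln-1* mutant and the wild type (WT). They were chosen from the measured values themselves. Probe sets listed with a single gene were taken, without control probe sets and genes of the chloroplast genome, and of several probe sets for a gene the brightest on average was used. A gene belonged if the mean of the 4 arrays was at least 2.0 in the deposited unit and if the means of *aln-1* and WT were less than 0.2 apart. Of 12650 genes compared, 88 (0.696%) reached the level, and 62 of these 88 (70.5%) also stayed within the difference, which is 0.490% of the genes compared. The other 26 were at least 0.2 apart, 12 higher and 14 lower in *aln-1*. The level was a mean over both genotypes, so some of the 26 were below 2.0 in *aln-1* or in WT. Because level and genotype difference made the choice, both are given for the 62 genes as a description without a test. The spread between the arrays of one genotype took no part in the choice.

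The samples were 2 arrays of *aln-1*, a single T-DNA insertion line of *ALLANTOINASE* (*ALN*), and 2 of WT, the Col-0 accession in which the line was made. All came from the aerial parts of untreated seedlings at 2 weeks of age, grown under sterile conditions on half-strength Murashige and Skoog medium with 1% sucrose at 22 °C according to the labels (the methods of the study give a slightly higher temperature), with 16 h of light and 8 h of darkness. ALN hydrolyses allantoin, an intermediate of purine breakdown, so that allantoin builds up when the enzyme is lost. The RNA of each sample was read on an Affymetrix ATH1 array, which gives 1 value for each probe set. The deposited values are normalized scores on a log scale whose base is not stated, and differences below are in that unit, not fold changes. *ALN* itself read -0.0466 and 0.00508 in *aln-1*, against 0.367 and 0.442 in WT, a difference of -0.425 (standard error 0.0505, adjusted p = 0.0116 from limma, n = 2 arrays each).

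A green seedling devotes much of its messenger RNA to a small number of jobs. Chloroplasts need light-harvesting proteins that carry chlorophyll, the small nuclear-encoded subunits of the photosystems, and the enzymes that make chlorophyll, all of which are imported from the cytosol. Carbon fixation needs Rubisco activase and the enzymes of the Calvin cycle, and every cell runs glycolysis, protein turnover and defence against reactive oxygen and metals. Transcripts of this kind are often taken as the steady background against which responses to stress are read. These jobs are general background and not a reading of the genes chosen, most of which had no name. The list is also incomplete, since ribosomal proteins, which are taken up below, are not in it.

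Of the 62 genes, 19 had a name in the RefSeq gene table used here (assembly TAIR10.1), and the other 43 had a locus number only. No function is given for those 43. The 19 named genes fell into 9 classes. The measured genes of a class are here those with a single-gene probe set and a name that matched the class words. Other genes of the same function can be among those without a matching name. Among the 19 named genes, the antenna, photosystem and thylakoid membrane class gave the most, 6 of its 10 measured genes. The 43 genes without a name could change this order. The classes also took in 2 of 10 genes of chlorophyll synthesis, 3 of 11 of glycolysis and organic acid metabolism, 2 of 11 of metal binding and redox balance, and 2 of 8 dehydrin and drought-related genes. The other 4 classes each held 1 member, namely the single *S*-adenosylmethionine decarboxylase gene matched by name, 1 of 12 defensin-like peptides, 1 of 20 beta-glucosidases and 1 of 2 aspartic proteinases. None of the 4 measured genes of the Calvin cycle and photorespiration belonged, and none of the 4 of electron transport and ATP synthase. For ribosomal proteins only 2 genes were matched by name, and 0 of them belonged. Whether genes of this kind are among the 43 was not read. The classes describe the genes that could be named and not the whole top of the transcriptome. Among all probe sets at 2.0 or more, 337 in number, 104 were listed with a single gene (16 of them in the chloroplast genome), 20 with several and 213 with none, and those 213 were not named here.

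**Figure D1:**
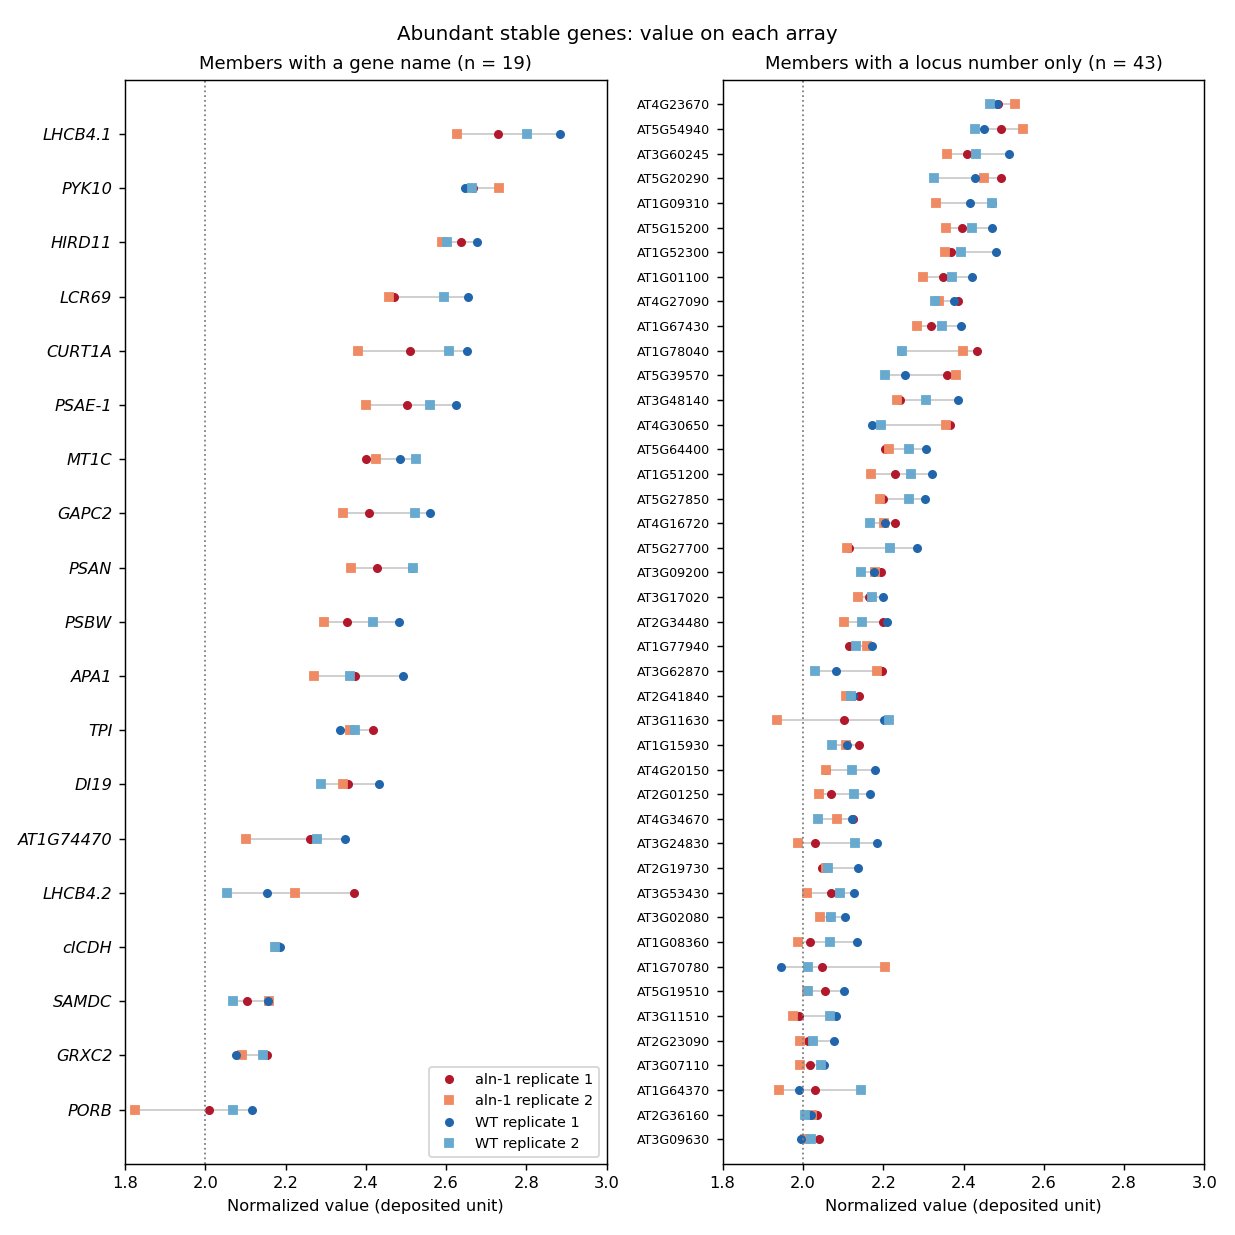
Normalized value (deposited unit) of each of the 62 genes on the 4 arrays, with the 19 named genes on the left and the 43 with a locus number only on the right. Points are single arrays, grey lines span the 4 arrays and the dotted line marks 2.0. The narrowest span is that of *cICDH* (0.0114) and the widest that of *LHCB4.2* (0.317).

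The antenna and photosystem genes gave the largest number of named members. *LHCB4.1* encodes CP29, a minor chlorophyll-binding protein between the outer antenna and photosystem II. It read 2.73 and 2.63 in *aln-1*, against 2.88 and 2.80 in WT, a difference of -0.164. *CURT1A*, whose protein bends the thylakoid membrane at the margins of the grana, read 2.51 and 2.38 in *aln-1*, against 2.65 and 2.61 in WT. For both genes the *aln-1* arrays lay below the WT arrays, and *aln-1* replicate 2 was the lowest of the 4.

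Both photosystems were represented. *PSAE-1*, a subunit on the stromal side of photosystem I where ferredoxin docks, read 2.50 and 2.40 in *aln-1*, against 2.62 and 2.56 in WT. *PSAN*, a subunit of photosystem I on the lumenal side, read 2.43 and 2.36 in *aln-1*, against 2.51 and 2.52 in WT. *PSBW*, a small subunit of photosystem II, read 2.35 and 2.30 in *aln-1*, against 2.48 and 2.42 in WT. The differences of these 3 genes were alike in direction, at -0.141, -0.121 and -0.126, and the *aln-1* arrays were below the WT arrays in each, as for 41.4% of all genes and probe sets tested.

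*LHCB4.2*, a second gene for CP29, ran the other way. It read 2.37 and 2.22 in *aln-1*, against 2.15 and 2.05 in WT, a difference of 0.193, which was the widest among the 62 genes in either direction and lay close to the limit of 0.2. Its *aln-1* arrays were both above its WT arrays, while those of *LHCB4.1* were both below. The third gene of this kind, *LHCB4.3*, was far below the level of 2.0 and read 0.401 and -0.0708 in *aln-1*, against 0.554 and 0.470 in WT (difference -0.347, adjusted p = 0.184 from limma).

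The 2 genes of chlorophyll synthesis act late in the pathway. *PORB* encodes a protochlorophyllide oxidoreductase, the enzyme that needs light to form the chlorophyll ring. It read 2.01 and 1.83 in *aln-1*, against 2.12 and 2.07 in WT. With a mean of 2.01 over the 4 arrays it was the gene nearest to the lower limit of level. AT1G74470, the geranylgeranyl reductase that makes the phytol tail of chlorophyll, read 2.26 and 2.102 in *aln-1*, against 2.35 and 2.28 in WT. Both had their lowest value in *aln-1* replicate 2, by 0.184 and 0.159 below replicate 1, which were among the wider replicate gaps of the 62 genes.

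Taken as a group, the 8 photosynthesis genes among the 62 had a median difference of -0.136 between *aln-1* and WT, beside -0.0327 over all 12650 genes. The value was lower in *aln-1* for 7 of the 8, with *LHCB4.2* the exception. None of the 8 had overlapping arrays, and 66.8% of all genes and probe sets tested had none either. The 2 *aln-1* arrays were not alike in this group: replicate 1 was above replicate 2 for 8 of 8 genes, by a median of 0.116. In WT, replicate 1 was above replicate 2 for 7 of 8, by a median of 0.0645. With *aln-1* replicate 2 left out the median difference was -0.0892, and with *aln-1* replicate 1 left out it was -0.201, and 7 of 8 genes were lower in *aln-1* either way, as they were after quantile normalization and after centring on array medians. With *aln-1* replicate 1 left out 4 of the 8 remained within 0.2.

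The photosynthesis genes were also read as a wider set that takes in the members. Over the 28 genes measured in the 4 classes of antenna and photosystems, chlorophyll synthesis, Calvin cycle and photorespiration, and electron transport and ATP synthase, the value was lower in *aln-1* for 25, with a median difference of -0.192. Without *aln-1* replicate 2 this median was -0.113, and 24 of 28 were lower. The 28 include the 8 members, chosen for a small difference, and the abundant genes set aside for a larger one. Of the 20 that were not members, 18 were lower in *aln-1*, with a median difference of -0.236. Of the 15 below 2.0, which the difference had not sorted, 13 were lower, with a median of -0.202. Replicate 1 of *aln-1* was above replicate 2 for 27 of these 28 genes, by a median of 0.143, where 48.4% of all genes compared had replicate 1 above replicate 2. In WT it was 18 of 28, with a median gap of 0.0218. *HEMA2*, for a glutamyl-tRNA reductase at the start of the tetrapyrrole pathway, was the 1 gene of the 28 with replicate 2 of *aln-1* above replicate 1. In whole aerial tissue, fewer green cells and less transcript in each cell cannot be told apart.

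Of the 28, 15 were below the level of 2.0 and had thus not been sorted by the difference. In limma 2 of these 15 fell in *aln-1* and none rose, where 8.17% of all genes and probe sets tested fell and 7.42% rose (15.6% in either direction). At an unadjusted p under 0.05, 9 of the 15 were lower and 1 was higher, where 20.8% of all tested were lower and 14.5% higher. *CHLI2*, a subunit of the magnesium chelatase that puts the metal into chlorophyll, read 0.4995 and 0.288 in *aln-1*, against 0.754 and 0.801 in WT (difference -0.384, standard error 0.0796, adjusted p = 0.0373). *HEME1*, a uroporphyrinogen decarboxylase of the same pathway, read 0.794 and 0.661 in *aln-1*, against 1.02 and 1.01 in WT (difference -0.289, standard error 0.0592, adjusted p = 0.0361). Both calls were lost without *aln-1* replicate 2 (adjusted p = 0.0558 and 0.0778), without WT replicate 1 (0.177 and 0.197) and without WT replicate 2 (0.168 and 0.152).

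**Figure D2:**
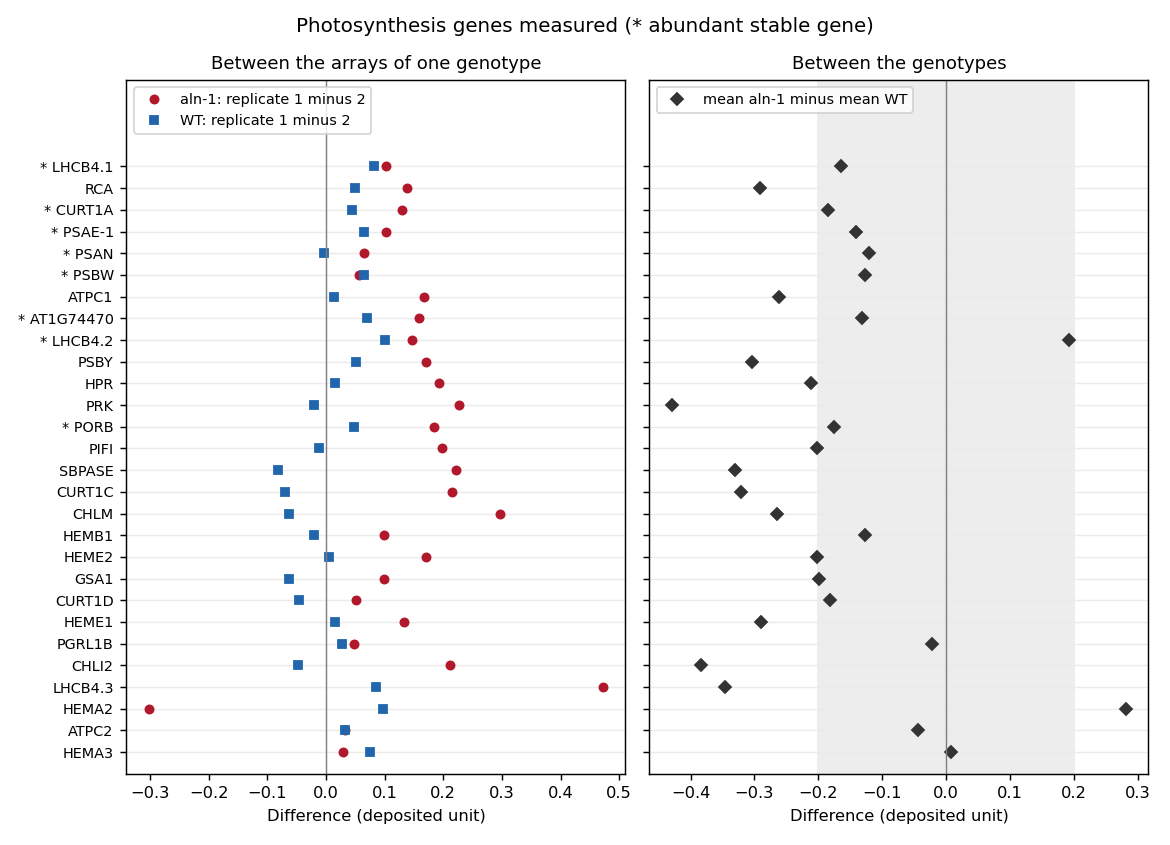
The 28 genes of photosynthesis and chlorophyll synthesis that were matched by name, ordered by mean, with the 8 abundant stable ones starred. The left panel gives replicate 1 minus replicate 2 within *aln-1* and within WT, and the right panel the mean of *aln-1* minus the mean of WT, all in the deposited unit, with the grey band marking differences under 0.2. In *aln-1*, 27 of 28 points lie right of zero on the left panel, and 25 of 28 lie left of zero on the right panel.

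The photosynthesis genes that reached the level but not the limit of difference were chosen by that difference, and their values carry no test here. *RCA*, for Rubisco activase, read 2.52 and 2.39 in *aln-1*, against 2.77 and 2.72 in WT, a difference of -0.292. *PRK*, the phosphoribulokinase of the Calvin cycle, read 1.95 and 1.72 in *aln-1*, against 2.25 and 2.27 in WT. *ATPC1*, the gamma subunit of the chloroplast ATP synthase, read 2.31 and 2.14 in *aln-1*, against 2.50 and 2.48 in WT. *PSBY*, a small photosystem II protein, read 2.13 and 1.96 in *aln-1*, against 2.37 and 2.32 in WT. All 4 were lowest in *aln-1* replicate 2. *HPR*, a hydroxypyruvate reductase of photorespiration, stood just outside the limit with a difference of -0.211. In these 5 genes and in 7 of the 8 members the value was lower in *aln-1*.

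The metabolic members spread very differently between arrays. *cICDH*, the cytosolic NADP-dependent isocitrate dehydrogenase, read 2.18 on both *aln-1* arrays, against 2.19 and 2.17 in WT. Its span over the 4 arrays, 0.0114, was the narrowest of the 62 genes, where the median span was 0.122 over the 62 genes and 0.167 over all genes compared. *TPI*, the cytosolic triosephosphate isomerase of glycolysis, read 2.42 and 2.36 in *aln-1*, against 2.34 and 2.37 in WT, so that the genotypes overlapped. *GAPC2*, the cytosolic glyceraldehyde-3-phosphate dehydrogenase that is often used as a reference in expression studies, read 2.41 and 2.34 in *aln-1*, against 2.56 and 2.52 in WT. Its arrays did not overlap, and its difference of -0.166 was nearer to those of the photosynthesis genes than to that of *cICDH* (-0.00298).

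Among the 8 measured genes of glycolysis and organic acids below 2.0, 1 rose and 1 fell in limma, where 7.42% of all tested rose and 8.17% fell. *IDH-V*, a subunit of the mitochondrial NAD-dependent isocitrate dehydrogenase, read 1.43 and 1.48 in *aln-1*, against 1.11 and 1.18 in WT (difference 0.310, adjusted p = 0.0203). *ENOC*, annotated as a cytosolic enolase, read 0.652 and 0.668 in *aln-1*, against 0.924 and 0.969 in WT (difference -0.287, adjusted p = 0.0197). The call of *IDH-V* was lost without *aln-1* replicate 2 and without either WT array, and that of *ENOC* without either WT array.

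The next members act in polyamine, redox and metal metabolism and in proteolysis. *SAMDC*, the *S*-adenosylmethionine decarboxylase that supplies aminopropyl groups for polyamines, read 2.105 and 2.16 in *aln-1*, against 2.16 and 2.07 in WT. *GRXC2*, a glutaredoxin that reduces disulphides with glutathione, read 2.15 and 2.09 in *aln-1*, against 2.08 and 2.14 in WT. In both the arrays of the genotypes overlapped, and the difference was 0.0188 for *SAMDC* and 0.0121 for *GRXC2*. *MT1C*, a metallothionein, a small cysteine-rich protein that binds metals, read 2.40 and 2.43 in *aln-1*, against 2.48 and 2.52 in WT. *APA1*, an aspartic proteinase of the vacuole, read 2.37 and 2.27 in *aln-1*, against 2.49 and 2.36 in WT. *MT1C* was lower on both *aln-1* arrays, while the arrays of *APA1* overlapped with a WT replicate gap of 0.132.

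In the metal and redox class, *PRXR1*, a peroxidase, reached the level and not the limit. It read 2.76 and 2.57 in *aln-1*, against 2.97 and 2.90 in WT, a difference of -0.272. Of the 8 measured genes of this class below 2.0, *GRXC1*, a second glutaredoxin, fell in *aln-1* (0.768 and 0.708 in *aln-1*, against 1.04 and 0.955 in WT, adjusted p = 0.0352 from limma) and none rose. The counts at an unadjusted p under 0.05 were the same, 1 lower and 0 higher of 8, beside 8.17% of all tested that fell and 20.8% that were lower unadjusted. That call was lost without *aln-1* replicate 2 (adjusted p = 0.0996) and without either WT array (0.201 without replicate 1 and 0.109 without replicate 2).

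The abundant genes of the dehydrin and drought-related class lay on both sides of the limit of difference, and the limit itself made that division. Dehydrins are hydrophilic proteins that protect membranes and enzymes when cells lose water, and many of their genes respond to abscisic acid and cold. *HIRD11*, a small dehydrin that binds metals, read 2.64 and 2.59 in *aln-1*, against 2.68 and 2.60 in WT. *DI19*, a zinc-finger protein first found through drought induction, read 2.36 and 2.34 in *aln-1*, against 2.43 and 2.29 in WT. Both overlapped between the genotypes, with differences of -0.0270 and -0.0110. In *DI19* the WT arrays were the highest and the lowest of the 4, with 0.146 between them.

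The other abundant genes of that class were far apart between the genotypes and are given as values only, since they were set aside for that difference. *LTI30*, a cold-induced dehydrin, read 2.69 and 2.84 in *aln-1*, against 1.46 and 1.82 in WT, a difference of 1.12. *COR15A*, a cold-regulated chloroplast protein, read 2.61 on both *aln-1* arrays, against 1.777 and 1.723 in WT. *COR15B* read 2.55 and 2.51 in *aln-1*, against 1.77 and 1.83 in WT. *COR47*, a dehydrin, read 2.69 and 2.76 in *aln-1*, against 2.00 and 2.17 in WT. *LTI30*, *COR15A* and *COR15B* were below 2.0 on both WT arrays and reached the level only through *aln-1*. In these 4 genes every *aln-1* array was above every WT array, as for 25.4% of all genes and probe sets tested. The limit had sorted them from *HIRD11* and *DI19*, so nothing is read from that contrast. Of the 2 genes of the class below 2.0, *RD2* rose in limma (1.73 and 1.89 in *aln-1*, against 1.19 and 1.19 in WT, difference 0.621, adjusted p = 0.00954), and *HVA22C* did not pass (difference 0.0211, adjusted p = 0.796). The call of *RD2* was lost without WT replicate 1 (adjusted p = 0.0919) and without WT replicate 2 (0.0625).

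A pair of families linked to defence each gave 1 member. *LCR69*, also called *PDF2.2*, encodes a defensin-like peptide, a small secreted protein held by disulphide bonds. It read 2.47 and 2.46 in *aln-1*, against 2.66 and 2.59 in WT, a difference of -0.161 with 0.0103 between the *aln-1* arrays. Of the 11 measured relatives below 2.0, 2 rose and 2 fell in *aln-1*, beside 7.42% and 8.17% of all tested. *PDF2.5* read 0.428 and 0.479 in *aln-1*, against -0.221 and -0.112 in WT (difference 0.620, adjusted p = 0.00703 from limma). *PDF1.2b*, a marker of the jasmonate and ethylene response, read -0.258 and -0.397 in *aln-1*, against 1.30 and 0.744 in WT (difference -1.35, adjusted p = 0.0150). The others called were *PDF2.1* (higher) and *PDF1.2* (lower). The call of *PDF2.5* was lost without WT replicate 1 (adjusted p = 0.0675), while that of *PDF1.2b* was kept without each array in turn.

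*PYK10* is the myrosinase-like beta-glucosidase of the ER body, a store that meets its substrates when cells are broken. It read 2.67 and 2.73 in *aln-1*, against 2.65 and 2.66 in WT, so that both *aln-1* arrays were above both WT arrays by a narrow margin. Of the 19 other beta-glucosidases measured, all below 2.0, 4 rose and 1 fell in *aln-1*, beside 7.42% and 8.17% of all tested. *BGLU40* read 1.04 and 1.19 in *aln-1*, against 0.402 and 0.419 in WT (difference 0.707, adjusted p = 0.00698 from limma). *BGLU43* read -0.632 and -0.495 in *aln-1*, against 0.178 and 0.234 in WT (difference -0.769, adjusted p = 0.00608). The other rises were those of *BGLU16*, *BGLU25* and *BGLU42*. The call of *BGLU40* was lost without WT replicate 1 (adjusted p = 0.0769) and without WT replicate 2 (0.0522), and that of *BGLU43* without WT replicate 1 (0.0614).

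Over all 12 classes searched, 15 of the 66 genes below 2.0 passed the test (22.7%), beside 15.6% of all tested. All 15 passed again without *aln-1* replicate 1, 8 without *aln-1* replicate 2, 1 without WT replicate 1 and 4 without WT replicate 2, and the direction stayed the same for all 15 in each of these fits.

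The 43 genes with a locus number only reached means of up to 2.49, below the 6 highest of the named genes. Of the 43, 3 were among the 12 highest of the 62. AT4G23670 read 2.48 and 2.53 in *aln-1*, against 2.48 and 2.47 in WT. AT5G54940 read 2.49 and 2.55 in *aln-1*, against 2.45 and 2.43 in WT. AT3G60245 read 2.41 and 2.36 in *aln-1*, against 2.51 and 2.43 in WT. The first and second were higher on both *aln-1* arrays, and the third was lower on both. Probe sets differ in how strongly they bind their transcripts, so the order of levels between genes is not an order of transcript amounts.

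The narrowest and widest spans show what stable meant here. AT2G36160 read 2.03 and 2.02 in *aln-1*, against 2.02 and 2.01 in WT, a span of 0.0281. AT2G41840 read 2.14 and 2.11 in *aln-1*, against 2.13 and 2.12 in WT, a span of 0.0315. With *cICDH* these were the 3 narrowest of the 62. The 5 widest were *LHCB4.2* (0.317), *PORB* (0.292), AT3G11630 (0.280), *CURT1A* (0.272) and AT1G70780 (0.258), 3 of which are photosynthesis genes. AT3G11630 read 2.103 and 1.94 in *aln-1*, against 2.201 and 2.22 in WT. AT1G70780 read 2.05 and 2.203 in *aln-1*, against 1.94 and 2.01 in WT. On all 4 arrays, 52 of the 62 genes were at 2.0 or more.

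Between the arrays of one genotype the members were close together. The absolute difference between the 2 *aln-1* arrays had a median of 0.0423 over the 62 genes, beside 0.143 over the 26 abundant genes outside the limit and 0.0604 over all 12650. Between the 2 WT arrays the medians were 0.0492 for the 62 genes, 0.0597 for the 26 and 0.0517 for all, and after quantile normalization of the arrays 0.0273 for the 62 genes and 0.0465 for all. The *aln-1* arrays were less than 0.1 apart for 52 of the 62 genes (83.9%), where 69.5% of all genes were, and the WT arrays for 57 of 62 (91.9%), where 76.0% of all genes were. A small genotype difference goes along with a small replicate gap in genes of any level. Among all 9910 genes within 0.2, the *aln-1* arrays were less than 0.1 apart for 76.2% and the WT arrays for 78.0%. For the 732 of these genes with a mean between 1 and 2, the shares were 77.6% and 91.8%. Their median gap was 0.0496 in *aln-1* and 0.0347 in WT, so close WT arrays were not particular to the 62 genes. Genes of one array share its hybridisation and scaling, so these shares carry no p-value.

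**Figure D3:**
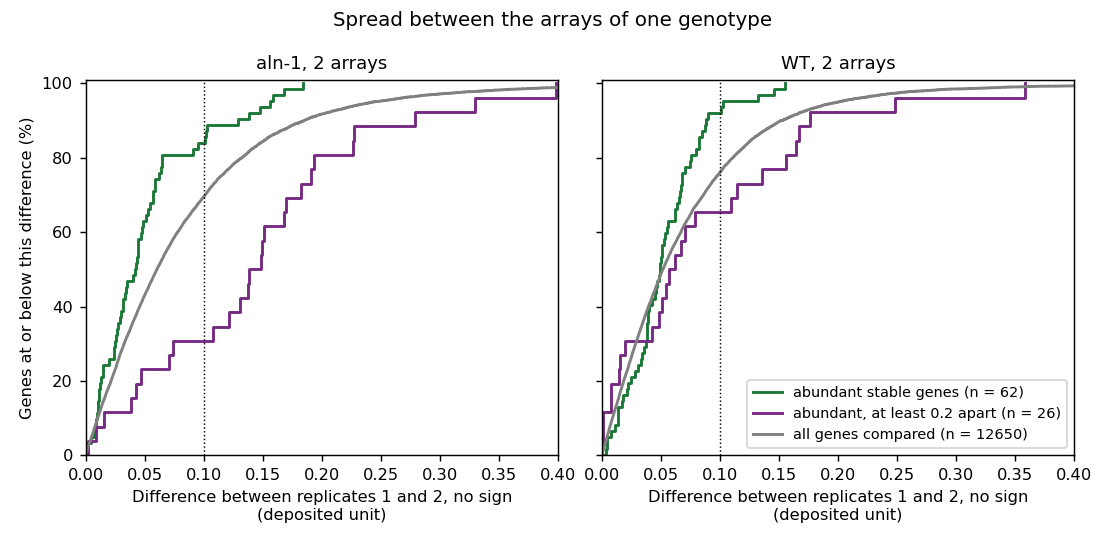
Cumulative share of genes (percent) by the absolute difference between replicates 1 and 2 (deposited unit), for *aln-1* on the left and WT on the right. Lines give the 62 abundant stable genes, the 26 abundant genes at least 0.2 apart between genotypes and all 12650 genes compared, and the dotted line marks 0.1. At 0.1 the abundant stable genes reach 83.9% in *aln-1* and 91.9% in WT, and all genes 69.5% in *aln-1* and 76.0% in WT.

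The members did not all spread alike. Photosynthesis members had a median gap of 0.116 between the *aln-1* arrays and 2 of 8 within 0.1, while the other 54 had a median of 0.0338. The 43 genes known by locus number had a median *aln-1* gap of 0.0315 and a median span of 0.115 over the 4 arrays. The 11 named genes outside photosynthesis had a median absolute genotype difference of 0.0351, and 7 of the 11 overlapped between the genotypes, beside 33.2% of all genes and probe sets tested. The small genotype difference had been a condition of the choice, and nothing is read from this count.

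The small differences leaned to the lower side, as did those of all genes compared. The median difference of the 62 genes was -0.0454, and 42 of them (67.7%) were lower in *aln-1*. Over all genes compared the median was -0.0327 and 60.9% were lower. Over the 9910 genes within 0.2 the median was -0.0301 and 62.6% were lower. WT replicate 1 was the highest of the 4 arrays for 36 of the 62, and *aln-1* replicate 2 the lowest for 35, where 39.9% and 34.0% of all genes had their highest and lowest value there. Replicate 1 was above replicate 2 for 50 of the 62 genes in *aln-1* and for 50 in WT, beside 48.4% and 60.3% of all genes. After quantile normalization, replicate 1 was above replicate 2 for 41 of the 62 in *aln-1* and for 37 in WT. Leaving out WT replicate 1, the array that was most often the highest, gave a median difference of -0.0274 and 36 genes lower in *aln-1*. Leaving out WT replicate 2 gave -0.0707 and 45 genes, leaving out *aln-1* replicate 1 gave -0.0653 and 44 genes, and leaving out *aln-1* replicate 2 gave -0.0364 and 40 genes. Both *aln-1* arrays were below both WT arrays for 32 of the 62 genes and above them for 12, and 18 overlapped. Over all genes and probe sets tested, 41.4% did not overlap and were lower, and 25.4% did not overlap and were higher, 66.8% in all. The choice of members used this contrast, and nothing is read from these counts or from the limma call of 1 member as higher (AT4G30650, 2.37 and 2.36 in *aln-1*, against 2.17 and 2.19 in WT, adjusted p = 0.049998) and none as lower (5 higher and 8 lower at an unadjusted p under 0.05, where 14.5% of all tested were higher and 20.8% lower).

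**Figure D4:**
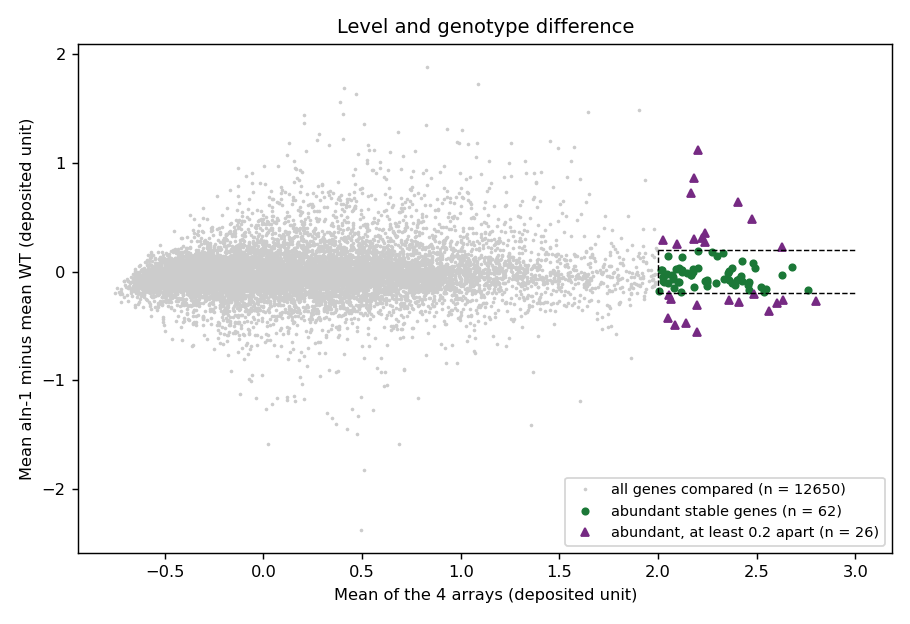
Mean of *aln-1* minus mean of WT against the mean of the 4 arrays, both in the deposited unit, for all 12650 genes compared (grey), the 62 abundant stable genes (green circles) and the 26 abundant genes at least 0.2 apart (purple triangles). The dashed lines mark the limits of 2.0 and 0.2, and the widest difference among the purple points is 1.12 (*LTI30*).

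Choosing genes on some arrays and reading them on the others gave a view of stability apart from the choice. When the level and the limit were applied to the arrays numbered 1 of both genotypes, 68 genes were chosen, and 59 of these (86.8%) were again less than 0.2 apart on the arrays numbered 2. The other way round, 63 were chosen on the arrays numbered 2 and 59 (93.7%) were within 0.2 on the arrays numbered 1. Over all genes compared, whatever their difference on the first pair of arrays, 74.4% were within 0.2 on the arrays numbered 2 and 77.1% on the arrays numbered 1. Over all genes that were within 0.2 on the first pair, the shares were 85.6% and 88.8%. The abundant genes chosen this way were therefore within 0.2 again about as often as genes of any level. Of the 91 genes chosen by level alone on the arrays numbered 1, 68.1% were within 0.2 on the arrays numbered 2.

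The share of genes within 0.2 did not climb with level. Of the 88 genes at 2.0 or more, 70.5% were within 0.2, where 72.9% of the 280 genes between 1.5 and 2.0 and 65.7% of the 804 between 1.0 and 1.5 were. The share was 72.5% for the 2164 genes between 0.5 and 1.0 and also for the 3518 between 0 and 0.5. It was highest, 86.2%, for the 5796 genes below 0, which are part of the 78.3% of all genes compared.

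The limits cut through a continuous range. The members with the lowest means were *PORB* (2.01), AT3G09630 (2.01) and AT2G36160 (2.02). Just under the level were AT5G16130 (2.00 after rounding), *PGY1* (1.99), annotated among the ribosomal proteins, and AT1G25275 (1.99). The members with the widest genotype differences were *LHCB4.2* (0.193), AT3G11630 (-0.189) and *CURT1A* (-0.185), and just past the limit were AT4G16190 (-0.201), *HPR* (-0.211) and AT1G13930 (0.225).

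Reference genes of quantitative PCR could be read for 3 of the 20 listed. *GAPC2* was the only one among the 62. *UBC21*, a ubiquitin-conjugating enzyme that the gene table lists as *PEX4*, read 1.21 and 1.25 in *aln-1*, against 1.12 and 1.17 in WT (difference 0.0863, adjusted p = 0.254 from limma). *TUB6*, a beta-tubulin, read 1.53 and 1.35 in *aln-1*, against 1.52 and 1.53 in WT (difference -0.0812, adjusted p = 0.455). Of the 3, *GAPC2* had the widest difference.

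Marker genes were listed to check the tissue, but too few could be read for such a check. Of 10 shoot and leaf markers 1 had a named probe set, *RCA*, with the values given above. Of 12 root markers 1 was found, *EXPA7*, a root hair expansin, at -0.104 and 0.00141 in *aln-1*, against -0.277 and -0.324 in WT. The pollen marker *AGL65* read between -0.110 and -0.107 in *aln-1* and between -0.218 and -0.175 in WT (1 of 4 found), and the guard cell marker *FAMA* -0.0708 and -0.0691 in *aln-1*, against 0.0878 and 0.118 in WT (1 of 4 found). No seed or epidermis marker was found. The values of *EXPA7* and *AGL65* were higher and those of *FAMA* lower in *aln-1*, and their part in the members' values was not tested. The 62 genes lay on all 5 nuclear chromosomes, with 18, 8, 16, 9 and 11 on chromosomes 1 to 5.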

How the data were processed

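Aerial parts of *aln-1* and WT seedlings were measured on 4 Affymetrix ATH1 arrays (n = 2 each). The deposited values are scores on a log scale, which the authors obtained by passing raw files of an earlier series through SuperNORM, a service that fits a three-parameter lognormal distribution to each array. Its version, its background step and the log base were not given in the sources used here. Deposited p-values of a 2-way analysis of variance, for genotype and interaction, were not used.

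Of 22810 probe sets, 64 controls were left out and 842 had no values. Names came from the platform annotation (13513 probe sets with 1 gene, 503 with several, 8730 with none) and the RefSeq gene table; 62 of the 12650 genes compared were not matched to it. Each of the 62 members had a single probe set, of the type designed for 1 transcript. Classes were assigned by words in symbols and synonyms.

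Genotypes were compared with limma 3.58.1 in R 4.3.3 (genotype only, Benjamini-Hochberg over 21754 genes or probe sets, adjusted p under 0.05), tested on simulated data; other values were computed with pandas 2.3.3. Standard errors come from the moderated fit. Nothing in the labels says that replicates were separate cultures, so p-values cover only how far these arrays lay apart, which may be technical spread. The number of arrays limits the precision. Arrays of one genotype correlated at 0.981 (*aln-1*) and 0.987 (WT) over all probe sets, and arrays of different genotypes at 0.901 to 0.947.

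Members and lists were chosen with earlier results of these data known, and the class words were revised after the gene table was seen. The epidermis marker *FDH* was left out because its symbol matched a formate dehydrogenase. Named are the 12 highest members, class members and same-class genes outside the limit, genes at the limits, the widest and narrowest spans, list genes and *ALN*. Genes of the classes below 2.0, other than *LHCB4.3* and *HVA22C*, were named because they passed the test. *HEMA2* and AT4G30650 were also named after their values were seen. The alternatives tried were quantile normalization, centring on array medians, other limits, averaging the probe sets of each gene, using only probe sets for 1 transcript, leaving out each array, a replicate block, eBayes with a trend and dropping the third with the lowest means.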

Additional observations from a re-analysis of the deposited data

How the results depend on the processing

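The number of abundant stable genes was 62. It was 64 after quantile normalization and 63 after centring on array medians, with 61 of the 62 kept in each. AT3G11630 was lost in the first and *LHCB4.2* in the second. Leaving out each array gave 59 to 75 genes, a level of at least 1.8 gave 127, and a level of at least 2.2 gave 33. After centring, 38 members were lower in *aln-1*, and after quantile normalization 42, as in the deposited values. The share within 0.2 again was 93.7% when chosen on the arrays numbered 2, against 86.8% the other way round, and 81.9% after quantile normalization, where 86.3% of genes of any level within 0.2 on the arrays numbered 1 were so again.

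limma called 1615 genes or probe sets as higher and 1778 as lower in *aln-1*. Leaving out each array gave 71 to 2114 higher and 61 to 2372 lower. The counts were 71 and 61 without WT replicate 1, 288 and 256 without WT replicate 2, and 1021 and 882 without *aln-1* replicate 2. In these fits the lone array of a genotype is assumed to vary like the pair of the other genotype. The labels do not say whether arrays with the same replicate number were handled together. The replicate differences of the 2 genotypes correlated at 0.0421 over all genes and at 0.110 over the 62 genes, which cannot settle this. With the replicate number as a block, 1918 were higher and 1854 lower. A planned search of promoter motifs was not run.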
